A study of Mus musculus with 4 samples.

Results

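Heat shock chaperones are proteins that bind other proteins while they fold, hold them when they unfold and pass them on for refolding or breakdown. In the cytosol, the HSP70 proteins bind exposed stretches of a client with help from J-domain co-chaperones and nucleotide exchange factors, and the HSP90 proteins act on nearly folded clients. In the mitochondrial matrix a barrel-shaped chaperonin with its lid does a like task. Some of these genes are used at all times, and others are switched on by heat, proteotoxic stress or handling of cells through heat shock factors, which bind repeats of the bases GAA and TTC in promoters. Cells of the dental follicle secrete much matrix, and the chaperones of the cytosol described here are distinct from those of the secretory pathway.

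The genes described are 10 cytosolic and mitochondrial heat shock chaperones, chosen by symbol, of 23107 genes in the deposited tables. They are Hspa1a, Hspa1b and Hspa8 of the HSP70 family, their partners Dnajb1 and Hsph1, the small heat shock protein gene Hspb1, Hsp90aa1 and Hsp90ab1, and the chaperonin genes Hspd1 and Hspe1. All 10 passed the filter on low values.

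The libraries are from tdTomato-positive cells sorted by flow cytometry from enzymatically dissociated follicles of mouse mandibular molars at postnatal day 8, after tamoxifen at postnatal day 3. Conditional knockouts labelled Ptch1(-/-) (cKO, n = 2 libraries) were set against conditional heterozygotes labelled Ptch1(+/-) (cHet, n = 2 libraries). By these labels the heterozygotes also lack a copy of Ptch1, the hedgehog receptor, and there is no wild-type group. Both groups had tamoxifen, dissociation and sorting. The labels give the cell type as PTHrP+. The Cre line and the number of animals per library are not given in the sources used here. Libraries are named cKO_0, cKO_1, cHet_0 and cHet_1, as in the columns of the tables. A level is a scaled count, a gene's read count divided by a factor for its library, unless FPKM, a level per transcript length, is named. Fold changes are log2 differences, cKO minus cHet, of scaled counts with 3 added, and p-values are two-sided from limma.

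Scaled totals lay between 69361760 and 71228342. Library cHet_1 stood apart: 34 genes were at 0 there and at 100 or more in the remaining 3, where the same count for those was 0 to 3. Its correlation with the other libraries was 0.742 to 0.791 (Pearson, across genes), against 0.811 to 0.893 among the other libraries. Of the 14297 genes tested, 24.5% were below 50% of their lowest other value in cHet_1. Sex-linked genes differed between libraries too. Xist was at 6489 and 5596.5 in cKO, against 4319 and 103 in cHet. The Y chromosome genes Kdm5d, Ddx3y and Uty were highest in cHet_1. Kdm5d was at 106 and 27.2 in cKO, against 1022 and 1537 in cHet. These genes were named after their values were seen, and the part of sex in the chaperone values was not tested. Ptch1 itself had 22420 and 23341 in the cKO libraries, against 12867 and 5438 in the cHet libraries. This whole-gene level was higher, not lower, in the libraries labelled cKO. The deleted part of the gene was not examined, so the values do not check the labels. The follicle lineage genes Pthlh (8613 to 15879) and Runx2 (23232 to 28353) were present in all 4 libraries, both named after their values were seen. They changed little (log2 fold changes -0.24 and 0.05), unlike others of the 11 follicle markers, of which 8 were negative and 3 positive. At an unadjusted limma p under 0.05, 4 markers were lower in cKO and 0 higher. The 4 were Tnn (log2 fold change -2.35), Dcn (-1.24), Lum (-1.08) and Postn (-1.03), each without overlap of the groups. At an adjusted limma p under 0.05 there were 0.

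The promoters show how closely some of these genes are related. RefSeq promoter windows of 300 bases (GRCm38.p6, the same assembly as mm10, 250 bases before and 50 after a start) were held for 7 of the 10 genes. Windows for Hspa8, Hsp90aa1 and Hsp90ab1 were not in that table. Hspa1a (chr17:34969190-34972156, minus strand, GENCODE vM21) and Hspa1b (chr17:34956436-34959238, minus strand) are neighbouring single-exon genes with 9951 bases between them. Their windows differ at 4 of 300 positions, and the 150 bases before each start, shown for this near identity, differ at 1. Capitals mark the heat shock element core GAANNTTC, whose first base is at position -104 from both starts. The Hspa1a stretch is chr17:34972157-34972306 and the Hspa1b stretch chr17:34959239-34959388, both on the minus strand.
Hspa1a: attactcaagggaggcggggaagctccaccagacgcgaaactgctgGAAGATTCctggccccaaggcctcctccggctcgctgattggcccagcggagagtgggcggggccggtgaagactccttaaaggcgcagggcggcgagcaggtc
Hspa1b: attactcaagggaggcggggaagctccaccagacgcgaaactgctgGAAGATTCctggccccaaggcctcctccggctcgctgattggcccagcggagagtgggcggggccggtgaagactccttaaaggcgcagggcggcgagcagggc

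Hspd1 (chr1:55077835-55088243, minus strand) and Hspe1 (chr1:55088132-55091307, plus strand) are read in opposite directions from a shared stretch, with 107 bases between the starts of the first transcript that GENCODE lists for each. Another Hspd1 transcript starts inside Hspe1, so that the genes overlap by 112 bases. The stretch is shown on the plus strand (chr1:55088038-55088137) because it lies at the starts of both genes. Capitals mark a run in which the cores TTCNNGAA, GAANNTTC and TTCNNGAA overlap, with its first base at position -89 from the RefSeq start of Hspe1. The Hspb1 stretch (chr5:135887779-135887878, plus strand) holds 2 separate GAANNTTC cores.
Hspe1 and Hspd1: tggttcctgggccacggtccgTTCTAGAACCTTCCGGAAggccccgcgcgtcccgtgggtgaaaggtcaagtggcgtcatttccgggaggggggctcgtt
Hspb1: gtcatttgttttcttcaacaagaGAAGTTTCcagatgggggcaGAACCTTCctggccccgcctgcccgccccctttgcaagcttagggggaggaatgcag

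The cores were searched on both strands, where each reads the same. TTCNNGAA was in 8.52% and GAANNTTC in 7.86% of the 32851 promoter windows of the table, and either core in 15.1%. Among the 7 chaperone genes with a window, 6 held either core in at least 1 window: Hspa1a, Hspa1b, Hsph1, Hspb1, Hspd1 and Hspe1. This counts genes, some with 2 windows, whereas the shares count windows, and 1 window of Hspd1 held neither core. The genes are also not separate sequences, as Hspa1a and Hspa1b are near copies and Hspd1 and Hspe1 share a stretch. A longer element, in which both cores overlap to give 3 alternating repeats of GAA and TTC with 2 bases between repeats, was in 0.603% of all windows, and Hsph1, Hspd1 and Hspe1 held it. In Hsph1 it lay after the start, from position 37 in 1 window and 16 in the other. In Hspd1 and Hspe1 it lay before the start. The element of 4 such repeats in the shared Hspd1 and Hspe1 stretch, chosen after seeing that stretch, was in 5 of all windows. Those include a window of Hspd1 and that of Hspe1, which hold the same element. A match is a description of the letters, not a binding site. The windows of Dnajb1 held neither core. The TATA box TATAAA (both strands) was in 13.6% of all windows and in none of these. The CCAAT box (both strands) was in 37.4% of all windows, and Hspa1a, Hspa1b, Dnajb1, Hsph1 and Hspd1 held it.

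Sequence likeness also bears on how far reads can be assigned. Of the 50-base words in the longest coding transcript of each gene, 66.3% of Hspa1a and 62.3% of Hspa1b occurred in transcripts of other annotated genes, mostly in each other. The share was 74.8% for Hspa8, 58.5% for Hsp90aa1, 51.6% for Hspb1 and 44.8% for each of Hspd1 and Hspe1. It was 4.49% for Hsp90ab1, 0.441% for Dnajb1 and 0 for Hsph1. The gene sharing most words was Gm15459 for Hspa8 (70%), Gm12346 for Hsp90aa1 (51.5%) and Hsp25-ps1 for Hspb1 (51.6%). It was Hspd1-ps3 for Hspd1 (42.8%) and AC117239.2 for Hspe1 (35.2%). The types of the matching genes were not tallied. The sources used here do not say how reads matching several places were counted, and levels of the first 7 genes are uncertain to that extent. The gene Gm20481 overlaps 564 exonic bases of Hspa1a on the opposite strand, and the use of strand in counting is not given either.

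As a sum of scaled counts, the 10 chaperone genes stood at nearly the same level in every library. The sum was 163909 and 164362 scaled counts in cKO_0 and cKO_1, against 162328 and 161382 in cHet_0 and cHet_1. That was 0.235% and 0.232% of all scaled counts in the cKO libraries, against 0.234% and 0.227% in the cHet libraries. Hspa8, Hsp90ab1 and Hsp90aa1 made up 78.5% and 72.7% of the sum in cKO, against 80.9% and 81.8% in cHet. The equality belongs to this scale: the log2 ratio of the sums was 0.02 in scaled counts, -0.09 with median-of-ratios scaling and 0.12 in FPKM. In FPKM the sum was 1038 and 814 in cKO, against 1070 and 632 in cHet. In scaled counts single members varied more than the sum: Hspa8 lay between 61582 and 77310, and Hsp90aa1 between 14191 and 24334.

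**Figure D1:**
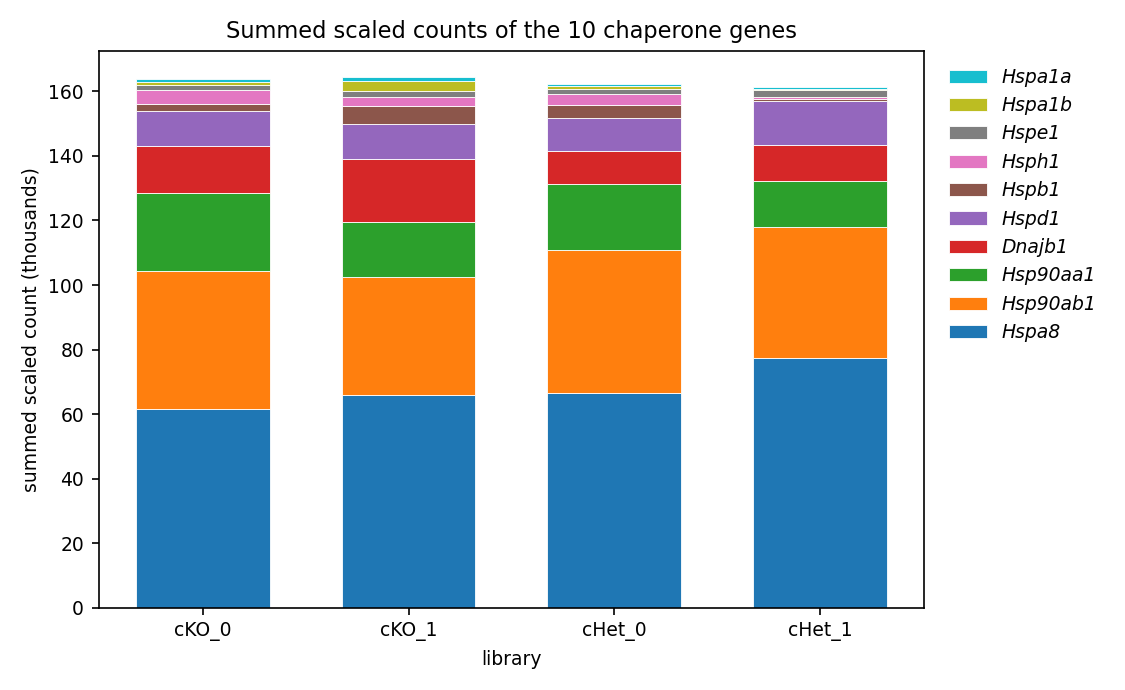
Summed scaled counts (in units of 1000, vertical axis) of the 10 chaperone genes in each library (horizontal axis), with 1 colour per gene. The bar heights run from 161382 to 164362, while the segments change in size, that of Hspa8 between 61582 and 77310 and that of Hsp90aa1 between 14191 and 24334.

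Of the 10 genes, 0 passed a Benjamini-Hochberg adjusted p of 0.05 over all genes in limma, as did 0 of the 14297 genes tested (0%). At an unadjusted p under 0.05 there was 1 chaperone gene, Dnajb1, and 433 genes in all, 3.03% of those tested (1.54% higher and 1.49% lower in cKO). The log2 fold change was positive for 6 members, against 56.3% of all genes tested, and negative for 4, from -0.17 for Hspa8 to 1.61 for Hsph1. Its median was 0.45 over the members and 0.12 over all genes tested. Without cHet_1 the members' median was 0.04 and that of all genes -0.05. Groups did not overlap for 2 members higher in cKO, Hspa1a and Dnajb1, where 18% of all genes tested did so, and for 1 member lower, Hspa8, against 14.2%. In either direction these were 3 of the 10 members, near the 32.2% of all genes tested. The median absolute difference between libraries of a group was 0.33 (cKO) and 0.48 (cHet) log2 units for the members, against 0.58 and 0.87 for all genes. The labels do not tie the libraries of a group to separate animals. The spread behind each p-value is that between libraries and may be technical. In bulk RNA, fewer cells of a type and less RNA per cell cannot be told apart.

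**Figure D2:**
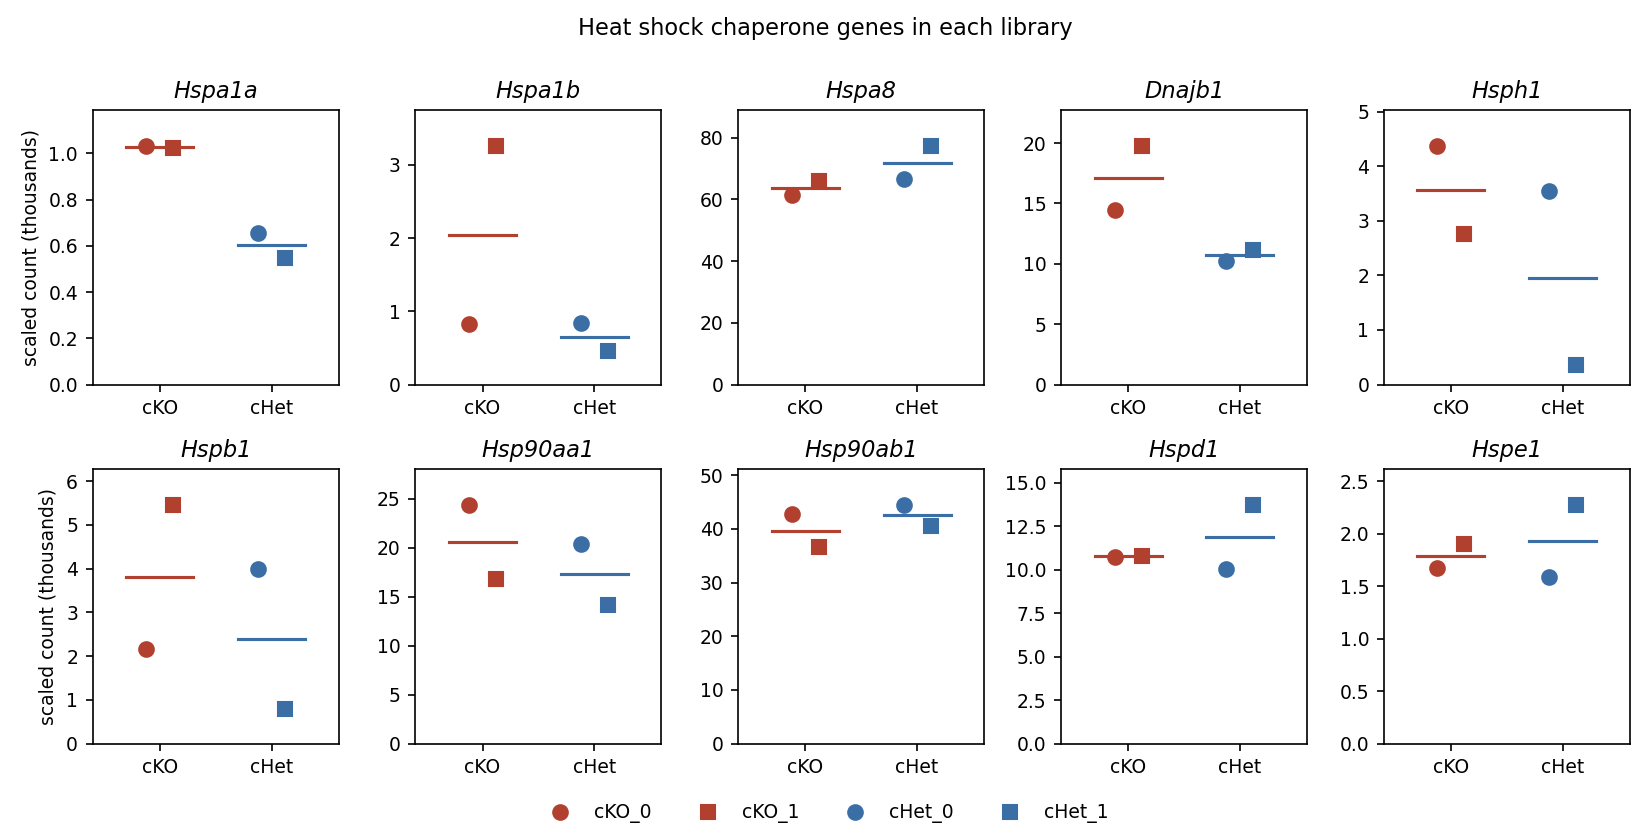
Scaled counts (in units of 1000, vertical axes from 0) of each chaperone gene, with circles for libraries numbered 0, squares for those numbered 1 and lines at group means (n = 2 libraries each). Hspa1a and Dnajb1 lie higher in both cKO libraries, and Hsph1 and Hspb1 are lowest in cHet_1 at 361 and 801.

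The inducible HSP70 genes had the lowest mean FPKM of the members over the 4 libraries, though Hsph1 was lower than both in cKO_1 and cHet_1. Hspa1a, which encodes a stress-induced HSP70, had 1032 and 1022 scaled counts in cKO_0 and cKO_1, against 658 and 547 in cHet_0 and cHet_1. Both cKO libraries were higher, and the values lay close together within each group. The means were 1027 ± 6.88 in cKO and 602 ± 77.9 in cHet (SD, n = 2 each), a log2 fold change of 0.77 (SE about 1, limma adjusted p = 0.929). limma draws each gene's spread toward that of genes of like abundance, so that closely matched libraries do not by themselves give a low p. Hspa1b, its near copy, had 825 and 3256 in cKO, against 845 and 457 in cHet. Only cKO_1 was high, 3.94 times cKO_0, and the groups overlapped. Its log2 fold change of 1.39 (SE about 1, limma adjusted p = 0.913) was 0.41 without cKO_1 and 2.38 without cKO_0. Without cHet_1 it was 0.95. The ratio of Hspa1b to Hspa1a was 0.8 and 3.18 in the cKO libraries, against 1.29 and 0.836 in the cHet libraries. Because these genes share most of their sequence, the pair's sum is also given: 1857 and 4278 in cKO, against 1503 and 1005 in cHet. In the sum, both cKO libraries were higher than both cHet libraries.

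Hspa8 (chr9:40800984-40810087, plus strand) encodes the constitutive HSP70 and was the most abundant member. It had 61582 and 66032 scaled counts in cKO, against 66521 and 77310 in cHet. Both cKO libraries were lower, cKO_1 and cHet_0 by a narrow margin, and the log2 fold change was -0.17 (SE 0.23, limma adjusted p = 0.933). In FPKM the groups overlapped, at 411 and 269 in cKO against 449 and 304 in cHet. The snoRNA genes Snord14c, Snord14d and Snord14e lie within Hspa8. The ratio of Hspa8 to Hspa1a in scaled counts was 59.7 and 64.6 in cKO, against 101 and 141 in cHet.

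Among the partners of HSP70, Dnajb1 had the lowest p of the 10 genes. Dnajb1 (chr8:83608193-83612653, plus strand) encodes a J-domain protein that delivers clients to HSP70 and stimulates its ATPase. It had 14493 and 19753 in cKO, against 10270 and 11140 in cHet. Both cKO libraries were above both cHet libraries, and cKO_1 was the highest. The means were 17123 ± 3720 in cKO and 10705 ± 615 in cHet (SD, n = 2 each), a log2 fold change of 0.66 (SE 0.27). The unadjusted limma p was 0.039, number 315 of 14297 genes in order, and the adjusted p was 0.913. The unadjusted limma p was 0.0944 with median-of-ratios scaling, 0.202 without the mean-variance trend and 0.168 in FPKM, and it lay between 0.0319 and 0.295 over all 17 alternatives. The libraries of a group differed by 0.45 (cKO) and 0.12 (cHet) log2 units. Whichever library was left out, the fold change stayed between 0.44 and 0.88, with the lowest without cKO_1. Because the groups did not overlap, leaving out a library could not change its sign. In FPKM, Dnajb1 had 95.9 and 114 in cKO against 67.4 and 56.7 in cHet, again without overlap. The ratio of Hspa8 to Dnajb1 in scaled counts was 4.25 and 3.34 in cKO, against 6.48 and 6.94 in cHet.

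Hsph1 (chr5:149614287-149636376, minus strand) encodes an HSP110 protein, which releases ADP from HSP70. It had 4369 and 2763 in cKO, against 3547 and 361 in cHet. The library cHet_1 was the low one, at a level 9.83 times below cHet_0, and the other 3 libraries were within a factor of 1.58 of each other. Hsph1 had the largest log2 fold change of the members, 1.61 (SE about 1, limma adjusted p = 0.913), and without cHet_1 it was -0.03. Without cHet_0 it was 3.26 (limma adjusted p = 0.0237), the only call of a member in any of the alternatives, and there cHet_1 alone stood for its group, with its variance assumed to be like that of the cKO libraries.

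Hspb1 (chr5:135887919-135889563, plus strand) encodes a small heat shock protein that holds unfolding clients without using ATP. It had 2171 and 5448 in cKO, against 3988 and 801 in cHet. The libraries of both groups were far apart, 2.51-fold in cKO and 4.98-fold in cHet, and the groups overlapped. The log2 fold change was 0.94 (SE 0.82, limma adjusted p = 0.913), and it was -0.21 without cHet_1, 2.10 without cHet_0, 1.61 without cKO_0 and 0.28 without cKO_1.

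**Figure D3:**
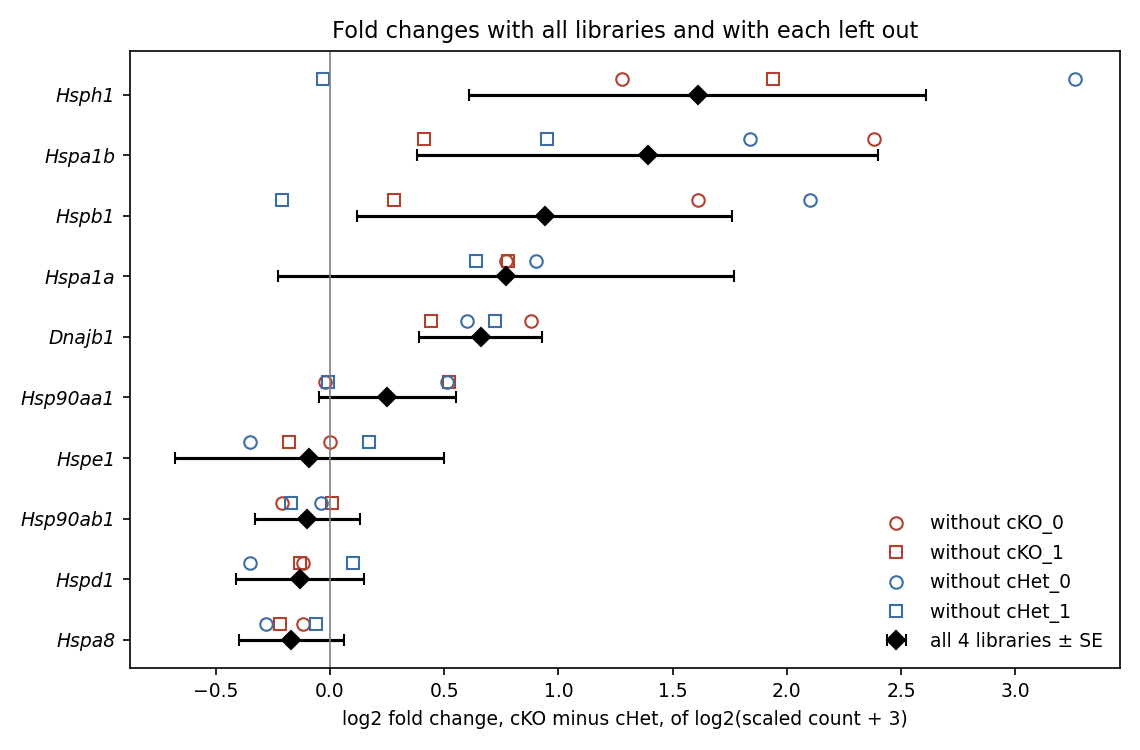
Log2 fold changes of the 10 genes (cKO minus cHet, horizontal axis) with all 4 libraries (black diamonds, bars ± limma SE) and with each library left out (open symbols). The symbols for Hsph1 and Hspb1 spread from -0.03 to 3.26 and from -0.21 to 2.10, whereas those for Dnajb1 lie between 0.44 and 0.88. The groups of Dnajb1 did not overlap, so that its sign could not change here.

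The cytosolic HSP90 genes encode the 2 forms of the chaperone that matures kinases and steroid receptors. Hsp90aa1 (chr12:110690605-110702728, minus strand), the more inducible form, had 24334 and 16783 in cKO, against 20418 and 14191 in cHet. In each group the library numbered 1 was lower, by 0.54 and 0.52 log2 units, and the groups overlapped (log2 fold change 0.25, SE 0.30, limma adjusted p = 0.924). The fold change was -0.02 without cKO_0, -0.01 without cHet_1, 0.51 without cHet_0 and 0.52 without cKO_1. Hsp90ab1 (chr17:45567775-45573271, minus strand), the constitutive form, had 42699 and 36598 in cKO, against 44429 and 40590 in cHet. Its groups overlapped and its log2 fold change was -0.10 (SE 0.23, limma adjusted p = 0.97). The ratio of Hsp90ab1 to Hsp90aa1 was 1.75 and 2.18 in cKO, against 2.18 and 2.86 in cHet, in scaled counts. In FPKM it was 2 and 4.55 in cKO, against 2.39 and 6.44 in cHet.

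The mitochondrial chaperonin genes had the same order of libraries in scaled counts. Hspd1, which encodes the HSP60 barrel, had 10725 and 10808 in cKO, against 10061 and 13712 in cHet. Hspe1, which encodes the HSP10 lid, had 1679 and 1898 in cKO, against 1591 and 2273 in cHet. For both genes cHet_0 was the lowest library and cHet_1 the highest, so that the cKO values lay between the cHet values. In FPKM the order was another, with cKO_0 the highest and cKO_1 the lowest. Hspd1 then had 66.3 and 29.3 FPKM in cKO, against 64.7 and 32.3 in cHet, and Hspe1 had 41.1 and 26.7 in cKO, against 39 and 30.6 in cHet. The ratio of Hspd1 to Hspe1 was 6.39 and 5.69 in cKO, against 6.32 and 6.03 in cHet, in scaled counts. In FPKM it was 1.61 and 1.1 in cKO, against 1.66 and 1.06 in cHet, so that the libraries numbered 0 were above those numbered 1. The log2 fold changes were -0.13 (SE 0.28, limma adjusted p = 0.97) for Hspd1 and -0.09 (SE 0.59, limma adjusted p = 0.992) for Hspe1. Without cHet_1 they were 0.10 and 0.17.

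Per transcript length, neighbours in the order of mean FPKM were mostly not separated beyond the spread over libraries. Hspa8 (269 to 449 FPKM over the 4 libraries) and Hsp90ab1 (148 to 245) were the highest and did not overlap each other, nor did Hsp90ab1 overlap the next gene. Then came Dnajb1 (56.7 to 114), Hspb1 (26.6 to 166), Hsp90aa1 (23.7 to 117), Hspd1 (29.3 to 66.3) and Hspe1 (26.7 to 41.1), where each neighbour overlapped the next, though Hspb1 reached into the range of Hsp90ab1. Hsph1 (0.641 to 17.4), Hspa1b (2.26 to 17) and Hspa1a (3.37 to 6.22) were the lowest and overlapped as well. In FPKM the groups did not overlap for 3 members higher in cKO, Hspa1a, Hspa1b and Dnajb1, where 11.2% of the 12278 genes tested in that unit did so, and for 0 members lower, against 8.75%. In FPKM the limma adjusted p was 1 for each of the 10 genes.

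**Figure D4:**
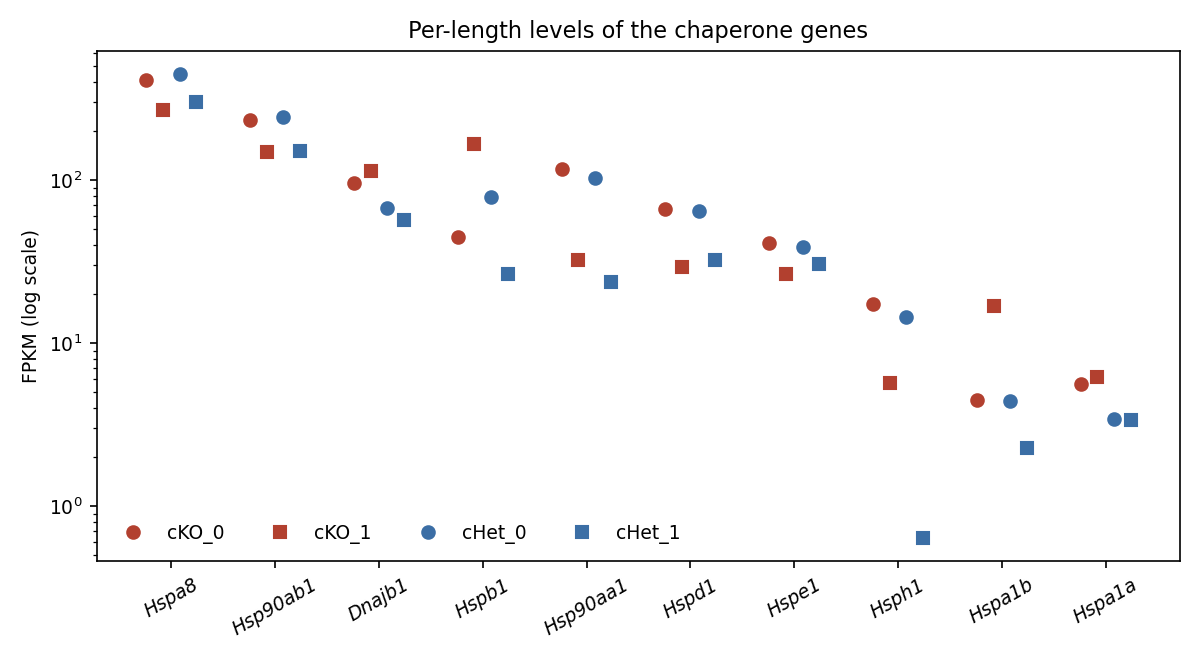
FPKM (log scale, vertical axis) of the chaperone genes in order of their mean, with cKO libraries in red and cHet libraries in blue. Hspa8 leads at 269 to 449, and Hspa1a is at 3.37 to 6.22.

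The 2 units did not give the same differences between libraries. FPKM per 1000 scaled counts was 6.19 and 2.71 for Hspd1 in cKO_0 and cKO_1, against 6.43 and 2.36 in cHet_0 and cHet_1. For Hspb1 it ran the other way, at 20.6 and 30.5 in cKO, against 19.7 and 33.3 in cHet. In both genes the libraries numbered 1 were alike and differed from those numbered 0. Hspa8 (6.67 and 4.07 in cKO, against 6.75 and 3.93 in cHet), Hsp90aa1 (4.82 and 1.93, against 5.03 and 1.67), Hsph1 and Hspe1 split the same way as Hspd1. Relative to each library's own median, this quantity varied over the 4 libraries by 3.01-fold for Hspb1, 2.11-fold for Hspa1a and 1.04-fold for Hspa8, with a median of 1.51-fold over 13416 genes. It exceeded 2-fold in 19.9% of genes.

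The 10 genes did not follow a common profile across libraries. Their distance from their own mean profile (root mean square of centred log2 values over the 4 libraries) was 0.20 for Hspa1a, 0.76 for Hspa1b, 0.74 for Hspb1 and 1.14 for Hsph1. Among 8954 other genes averaging 1000 scaled counts or more, Itga9, Slc48a1, Hsd17b10, Cog3 and Ublcp1 were the most like that mean profile, at distances of 0.026 to 0.038. With 4 libraries such likeness is a description only.

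The heat shock factors, which switch these genes on, are regulated mainly after translation, so that their transcript levels do not measure their activity. Hsf1, the main factor of the stress response, had 5948 and 3078 in cKO, against 4270 and 4883 in cHet (log2 fold change -0.09, SE 0.42). Hsf2 had 348 and 879 in cKO, against 430 and 506 in cHet, and Hsbp1, a negative regulator, had 8294 and 10561 in cKO, against 8411 and 12100 in cHet. Hsf4, a factor of the lens, was low, at 106 and 2.3 in cKO against 34.8 and 117 in cHet, and Hsf5 was listed at 0 in all. Of the 4 tested, 0 passed the adjusted limma p in either direction.

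Among the other chaperone lists, 0 members passed the adjusted limma p in either direction, and only values are given. Of 8 other HSP70 and HSP110 genes, 4 were higher and 4 lower in cKO (median log2 fold change 0.16, and -0.36 without cHet_1). Hspa13, a microsomal HSP70, was at 5764 and 5510 in cKO against 8250 and 7579 in cHet. Hspa14, a ribosome-associated HSP70, was at 2216 and 2292 in cKO against 1877 and 436 in cHet. Hspa1l, a testis-enriched gene beside Hspa1a, ranged from 3.2 in cKO_0 to 2388 in cHet_1.

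Of 13 cytosolic J-domain genes, 6 were higher and 7 lower in cKO, with a median of -0.28, and 0 without cHet_1. Dnaja2 had 8214 and 5962 in cKO against 8625 and 13215 in cHet, and Dnajb6, which blocks aggregation, had 6325 and 4436 against 6483 and 8334 in the same order. Dnajb4 had 1285 and 2737 in cKO against 2725 and 3548 in cHet. Dnajb5 had 354.5 and 1058 in cKO against 513 and 7.3 in cHet, and its log2 fold change of 3.08 was 0.25 without cHet_1. Dnaja1, the main partner of HSP70 besides Dnajb1 and named after its values were seen, had 15129 and 15033 in cKO against 11742 and 13167 in cHet. Its log2 fold change of 0.28 (SE 0.25) was in the direction of Dnajb1.

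Of 10 exchange and adaptor factors of HSP70, 3 were higher and 7 lower in cKO (median -0.25, and -0.13 without cHet_1). Bag3, an exchange factor that heat shock factors induce, had 5702 and 6375 in cKO against 7401 and 9292 in cHet. That is lower in both cKO libraries (log2 fold change -0.46, SE 0.30, limma adjusted p = 0.913), where Dnajb1 and Hspa1a were higher in both. Bag5 had 4217 and 3599 in cKO against 5053 and 8922 in cHet. Stip1, which links HSP70 to HSP90, had 9247 and 9804 in cKO against 9664 and 17442 in cHet, and St13, which stabilises HSP70 with its client, had 5490 and 5817 against 6427 and 8917 in the same order.

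Of 15 co-chaperones of HSP90, 9 were higher and 6 lower in cKO (median 0.15, and 0.16 without cHet_1). Unc45a, a chaperone of myosin, had 6623 and 7644 in cKO against 6318 and 93.1 in cHet, and its log2 fold change of 3.19 was 0.17 without cHet_1. Fkbp4, an immunophilin of steroid receptor complexes, had 15275 and 15473 in cKO against 11657 and 14090 in cHet. Ahsa2, an activator of the HSP90 ATPase family, had 2884 and 1893 in cKO against 3598 and 5372 in cHet. Ppid had 2659 and 3796 in cKO against 3825 and 5245 in cHet. Of 6 tested genes of the small heat shock protein list, 6 were higher in cKO (median 0.63), where 56.3% of all genes tested were. The median was -0.38 without cHet_1. Hspb2 and Cryaa, named after their values were seen, were near the floor. Hspb2 had 0 and 28.4 in cKO against 16.2 and 0 in cHet, and Cryaa had 0 and 237 against 55.9 and 2.1 in the same order. Hspb8 was at 464 and 1288 in cKO against 1087 and 10.5 in cHet, and Cryab at 777 and 1712 against 754 and 737 in the same order. Hspb11 was at 391 and 531 in cKO against 288 and 1 in cHet.

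Of 14 mitochondrial chaperone and protease genes, 8 were higher and 6 lower in cKO (median 0.21, and 0.16 without cHet_1). Hspa9, the mitochondrial HSP70, named after its values were seen, had 14081 and 16982 in cKO against 13711 and 14271 in cHet. The protease genes Afg3l2 and Lonp1 were low in cHet_1: Afg3l2 had 3662 and 7478 in cKO against 4032 and 599 in cHet, and Lonp1 had 6070 and 7914 against 7067 and 1415 in the same order. Clpp, the subunit of another matrix protease, had 2886 and 3078 in cKO against 1900 and 1375 in cHet. Of 14 subunits of the cytosolic chaperonin TRiC and of prefoldin, 8 were higher and 6 lower (median 0.05, and -0.21 without cHet_1), with Cct3 at 8979 and 10030 in cKO against 12948 and 13887 in cHet. With median-of-ratios scaling the median over all genes was 0.02, against 0.12, a shift larger than the TRiC and prefoldin median.

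Of 12 chaperones of the endoplasmic reticulum tested, 12 had negative log2 fold changes (median -0.32, and -0.25 without cHet_1), where 56.3% of all genes tested had positive ones. The groups did not overlap for 8, all lower in cKO, where 14.2% of all genes tested did so. None passed the adjusted limma p, and whether the list differs from the others was not tested. Hsp90b1, the HSP90 of that compartment, had 57214 and 46311 in cKO against 63344 and 63663 in cHet (log2 fold change -0.30, SE 0.23). Hspa5, its HSP70, named after its values were seen, had 72691 and 65829 in cKO against 77190 and 84878 in cHet. The list was chosen with earlier results of these data known, so that its direction is not independent evidence.

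**Figure D5:**
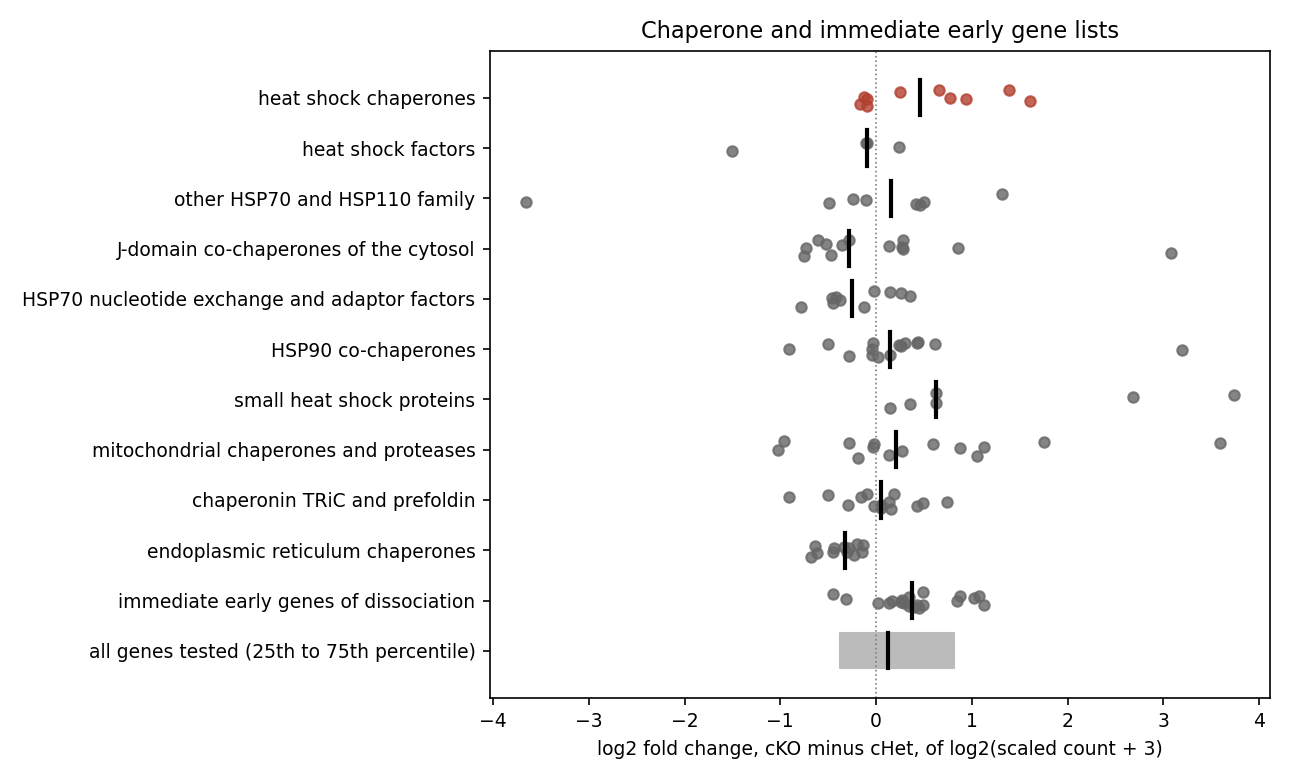
Log2 fold changes (cKO minus cHet, horizontal axis) of the tested genes of each list, 1 dot per gene, with black bars at the list's median. The grey box gives the 25th to 75th percentile of all genes tested, -0.38 to 0.81, and all dots of the endoplasmic reticulum list lie below 0.

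Immediate early genes, which enzymatic dissociation and sorting can induce along with heat shock genes, are given beside these values. Their summed level was 1224742 and 1984989 in cKO_0 and cKO_1, against 1173236 and 1231695 in cHet_0 and cHet_1. Library cKO_1 was the highest in this sum. Among the chaperone genes it was the highest only in Dnajb1, Hspa1b and Hspb1, and it was the lowest in Hsp90ab1. Of the 20 immediate early genes, 18 had positive log2 fold changes (median 0.37), where 56.3% of all genes tested did so. At an unadjusted limma p under 0.05, 2 were higher in cKO, where 1.54% of all genes tested were, and at an adjusted one 0 were. Klf2 had 20760 and 30958 in cKO against 16781 and 12010 in cHet, and Btg2 had 36555 and 65082 against 31715 and 18181 in the same order. Named after their values were seen, Atf3 had 849 and 14714 in cKO against 1700 and 2169 in cHet, and Nr4a1 had 7663 and 44261 against 8058 and 9606 in the same order. Their part in the chaperone values was not tested.

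Markers of other cells also differed between libraries. The summed level of 10 dental epithelium markers was 971859 and 2770958 in cKO, against 582528 and 1489000 in cHet. That of 7 Schwann cell markers was 27988 and 42272 in cKO, against 23038 and 15931 in cHet. That of 7 endothelial markers was 2850 and 9848 in cKO, against 2275 and 5757 in cHet, with Pecam1 at 0 in cHet_0. That of 8 leukocyte markers was 1617 and 10417 in cKO, against 1275 and 6371 in cHet, with Cd3e at 0 in all libraries and Ptprc at 0 in cHet_1. These 3 genes were named after their values were seen. That of 5 erythroid markers found in the tables was 3720 and 12641 in cKO, against 3401 and 2358 in cHet. In all 5 lists cKO_1 was the highest library. Single genes weighed heavily in some of these sums. Pmp22 gave 21164 and 19579 of the Schwann cell sum in cKO, against 20025 and 15244 in cHet. Kdr gave 1944 and 3146 of the endothelial sum in cKO, against 1900 and 4054 in cHet. Both were named after their values were seen. All 7 Schwann cell markers had positive log2 fold changes, against 56.3% of all genes tested. Their median was 2.9, and 1.64 without cHet_1. The 5 odontoblast markers summed to 16806 and 25176 in cKO, against 100476 and 99102 in cHet, and the 11 follicle markers to 4536133 and 4355565 in cKO, against 6144080 and 6797996 in cHet. Col1a1 and Col3a1, named after their values were seen, made up most of the follicle sum. Col1a1 had 2122200 and 2099810 in cKO, against 3673200 and 3370910 in cHet. Col3a1 had 2142840 and 2004620 in cKO, against 2057080 and 2879290 in cHet. The part of cell makeup in the chaperone values was not tested.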

How the data were processed

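RNA from sorted cells was isolated with a PicoPure kit, amplified with SMART-Seq v4 and made into libraries with Nextera XT, per the labels' protocols. The submitters' processing notes name build mm10 and, without saying what each was used for, TopHat2 (2.0.13), Bowtie2 (2.2.1), HTSeq, DESeq2, Cuffdiff, Cufflinks and FastQC. The main values are scaled counts, a signal that the authors deposited after dividing each library's gene counts by a factor, as the values show. FPKM, deposited by the authors and scaled to length and depth, served as an alternative. A further 16 columns in 4 tables have names found in no label and were left out. Because the columns number libraries from 0 and the titles from 1, each column was matched to its group only.

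Genes with 10 or more scaled counts in 2 or more libraries were kept, 3 was added, and the log2 values went into limma (3.58.1, under R 4.3.3) with a trended prior variance and group as the only term. Fold changes on this scale understate those of low genes. Two-sided p-values were adjusted over 14297 genes by the Benjamini-Hochberg method. The fit was also run on simulated independent counts with the same spread setting for all genes. No simulated library stood apart as cHet_1 did, so these runs do not show how the fit performs on these data. Reads of amplified cDNA are not independent molecules, and read depth behind the scaled counts was not recovered.

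The members and gene lists were chosen with earlier results of these data known. The text names all 10 members, up to 4 genes of lowest p per list, the 5 genes nearest the mean profile and, where stated, genes chosen after their values were seen. Of marker lists, sums and few genes are given. Lists were matched by symbol or unique RefSeq synonym. There were 17 alternatives.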

Additional observations from a re-analysis of the deposited data

How the results depend on the processing

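Over 17 alternatives, 161 of 169 fold changes of the 10 genes kept their direction and stayed on the same side of the threshold, 7 changed sign and 1 passed the threshold. Alternatives that changed only the filter or the limma model on scaled counts could not change the direction of a fold change. All 7 changes of sign came with a library left out. With each library left out in turn, the log2 fold change was -0.03 to 3.26 for Hsph1, -0.21 to 2.1 for Hspb1, -0.02 to 0.52 for Hsp90aa1, -0.35 to 0.1 for Hspd1, -0.35 to 0.17 for Hspe1 and -0.21 to 0.01 for Hsp90ab1. The sign changed without cHet_1 for Hsph1, Hspb1, Hsp90aa1 (-0.01), Hspd1 and Hspe1, without cKO_0 for Hsp90aa1, and without cKO_1 for Hsp90ab1. The call gained was that of Hsph1 without cHet_0 (limma adjusted p = 0.0237). Hspa1a, Hspa1b, Dnajb1 and Hspa8 kept their direction in every alternative that gave a value, at 0.64 to 0.9, 0.41 to 2.38, 0.44 to 0.88 and -0.28 to -0.06. For Hspa1a, Dnajb1 and Hspa8, whose groups did not overlap in scaled counts, leaving out a library could not change the sign. A mean of at least 1000 left out Hspa1a. Over all genes, 0 were called in either direction with the values as reported, 1 higher and 1 lower with log2(FPKM + 0.1), 3 higher and 4 lower with log2(FPKM + 1), and 0 to 1061 higher and 0 to 78 lower with a library left out (omitting cHet_0 gave 1061 higher and 78 lower, omitting cKO_0 7 and 5, omitting cKO_1 10 and 32, and omitting cHet_1 0 of each). The members' median was 0.04 to 0.56 with a library left out, lowest without cHet_1. The log2 ratio of the members' summed level was 0.02 as reported, 0.12 in FPKM, -0.09 with median-of-ratios scaling and -0.08 with trimmed mean of M values scaling. These scalings moved the median of all genes to 0.02, against 0.12, and Dnajb1 to no lower than 0.56. The cause of these changes was not tested.

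The column numbers were not shown to pair the libraries: deviations of same-numbered libraries correlated at 0.049 across genes. They did share a property: FPKM per 1000 scaled counts was alike in same-numbered libraries for several members, such as Hspa8, at 6.67 and 4.07 in cKO against 6.75 and 3.93 in cHet. For Hspa8 this followed each library's own median over genes, relative to which it varied by 1.04-fold. It is thus not particular to that gene. With the number as a replicate block, limma called 0 genes higher and 0 lower (606 at an unadjusted p under 0.05, against 433 without it), and the members' median was 0.45.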
